A study of Mus musculus with 12 samples.

Results

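Genes of DNA replication and the cell cycle were followed in the whole kidney of 3-week-old mice. The set was a list of 45 genes, and each was read from the probe set that carries its symbol alone and, where there were several, from the one with the highest mean over the 12 arrays. It had values for 44 of the 45 genes among the 19938 genes tested, and Ccnb1, a mitotic cyclin, was not analysed here. By role, 18 of them act in DNA replication, 6 regulate the passage from G1 into S phase and 20 act in mitosis.

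The study held 4 groups of 3 Affymetrix arrays. PpargΔ/Δ mice, named in the series title as PPARgamma null, and their controls were on the Mixed C57BL6/SV129 background, and AZIP mice and their controls were on FVB. Each array was hybridised with RNA pooled from 3 mice, 9 mice per group and 36 in all, and all groups were 3 weeks old and kept under the same alternating light and dark. PPARγ is the nuclear receptor that drives fat cell formation, and the A-ZIP protein blocks transcription factors that fat tissue needs. The labels do not state which part of Pparg is deleted and in which cells, or what drives the AZIP transgene. A pool averages its mice, so the spread between pools is smaller than that between single mice, and p-values measure the spread between pools only. RNA came from whole kidney, and markers of kidney epithelium averaged 11.84 to 11.95 on the 12 arrays. A change in the number of dividing cells cannot be told apart from a change in RNA per cell.

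A cell prepares to copy its DNA in G1, when the origin proteins Cdc6 and Cdt1 load the Mcm2 to Mcm7 helicase onto chromatin. Cyclin D and cyclin E kinases then release E2F factors, which switch on the replication genes, and the GINS complex and Cdc45 complete the active helicase. Mitotic genes are switched on later, in G2, largely through promoters with CCAAT boxes and a cell cycle homology region (CHR), and drive entry into mitosis, spindle assembly and chromosome separation. The kidney still grows by cell division after birth, and dividing cells are found in its tubules and stroma.

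Promoter sequences are shown because the replication and the mitosis genes, which differ below in their spread between pools, also differed in these letters. The sequences are RefSeq's on GRCm38.p6, 160 bases that end just before the annotated start, written 5′ to 3′ on the gene's strand. Capitals mark matches on either strand to E2F letters (TTTCCCGC, TTTCGCGC, TTTGCCGC or TTTGGCGC), CHR letters (TTTGAA or TTCGAA) and CCAAT, which reads ATTGG on the opposite strand. Mcm6 (chr1:128359706-128359865, minus strand) encodes a helicase subunit and Mcm2 (chr6:88898781-88898940, minus strand) another. Cdk1 (chr10:69352913-69353072, minus strand) encodes the mitotic kinase, Kif11 (chr19:37376222-37376381, plus strand) the spindle motor that pushes the poles apart, and Cdc20 (chr4:118437344-118437503, minus strand) an activator of the anaphase-promoting complex.
Mcm6: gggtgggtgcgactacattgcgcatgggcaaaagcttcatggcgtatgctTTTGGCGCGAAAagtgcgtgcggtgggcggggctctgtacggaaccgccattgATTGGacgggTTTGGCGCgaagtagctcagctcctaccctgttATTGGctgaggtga
Mcm2: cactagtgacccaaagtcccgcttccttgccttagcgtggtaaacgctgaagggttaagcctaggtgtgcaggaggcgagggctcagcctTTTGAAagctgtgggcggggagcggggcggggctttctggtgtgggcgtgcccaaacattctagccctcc
Cdk1: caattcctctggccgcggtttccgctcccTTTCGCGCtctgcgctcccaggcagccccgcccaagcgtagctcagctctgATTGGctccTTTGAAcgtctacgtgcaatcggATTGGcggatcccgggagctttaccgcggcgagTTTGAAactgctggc
Kif11: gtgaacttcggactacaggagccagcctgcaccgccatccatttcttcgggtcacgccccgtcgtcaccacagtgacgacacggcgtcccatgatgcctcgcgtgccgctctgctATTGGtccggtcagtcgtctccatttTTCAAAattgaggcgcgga
Cdc20: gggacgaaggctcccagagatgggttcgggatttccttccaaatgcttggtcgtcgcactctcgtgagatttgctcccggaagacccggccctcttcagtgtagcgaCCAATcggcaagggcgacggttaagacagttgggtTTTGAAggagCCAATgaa
Mcm6 held 3 E2F matches, of which those that begin 110 and 106 bases before the start overlap, and no CHR match. Mcm2 held no E2F match in this stretch and 1 CHR match. Cdk1 held both kinds, and Kif11 and Cdc20 each held 1 CHR match close to the start, 19 and 18 bases before it, with a CCAAT match upstream of it.

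Windows from 250 bases before to 50 bases after the start were at hand for 36 of the 44 genes. E2F letters stood in 7 of 15 replication genes (46.7%), in 1 of 17 mitosis genes (5.88%) and in 3.29% of the 17492 protein-coding genes. CHR letters showed the opposite split, in 3 of 15 replication genes (20%) and 14 of 17 mitosis genes (82.4%), against 20.2% of protein-coding genes. CCAAT was common to both, in 11 of 15 (73.3%) and 15 of 17 (88.2%), against 42.3%. The same split appeared in genes outside the set, where E2F letters stood in 10 of 27 other replication genes (37%) and 2 of 38 other mitosis genes (5.26%), and CHR letters in 8 (29.6%) and 26 (68.4%). A match is a description of letters and no evidence of a bound factor.

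The replication and the mitosis genes had similar median differences between PpargΔ/Δ kidneys and their controls, and the replication genes had the smaller spread between pools. At a limma adjusted p under 0.05, 8 of 18 replication and 1 of 20 mitosis genes were higher, where 2.67% of all genes were. The mean log2 value over the 18 replication genes was 8.69, 8.52 and 8.51 in the PpargΔ/Δ pools and 8.19, 8.05 and 8.28 in the mixed controls. These do not overlap, and the difference of the group means was 0.40, or 1.32-fold. Over the 20 mitosis genes the PpargΔ/Δ pools read 8.57, 8.14 and 8.17 and the mixed controls 8.01, 7.34 and 8.11. That difference was 0.47, or 1.38-fold, and the lowest PpargΔ/Δ pool stood only just above the highest control. Mixed control pool 2 was far below the other two, and without it the median difference of the mitosis genes was 0.21 in place of 0.43. The 6 G1/S regulators averaged 8.22 to 8.47 against 7.89 to 8.10, a difference of 0.33.

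**Figure D1:**
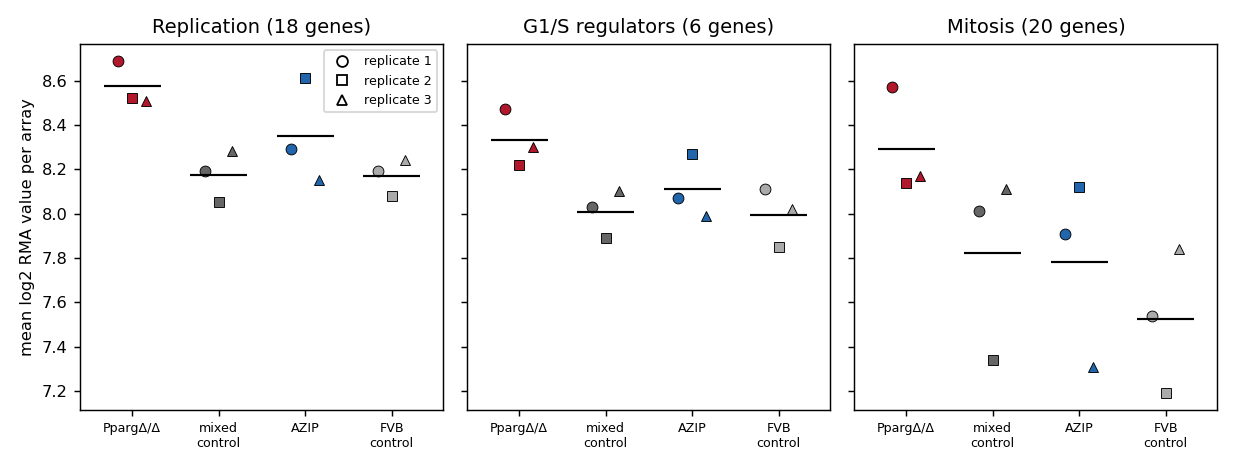
Mean log2 RMA value of each array over the replication genes, the G1/S regulators and the mitosis genes, in 4 groups of 3 pools (symbols give the replicate number, horizontal lines the group means). The PpargΔ/Δ replication means, 8.51 to 8.69, lie above the mixed controls, 8.05 to 8.28, and the mitosis means spread widely in all 4 groups.

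Gene by gene, each difference is the mutant mean less the control mean in log2 units, given with limma's SE and its Benjamini-Hochberg adjusted p over all genes tested, n = 3 pools per group. All 44 genes were above 0 in PpargΔ/Δ kidneys, with a median difference of 0.42, against -0.01 over all genes. At an adjusted p under 0.05, 11 of the 44 were higher, where 2.67% of all genes were, and none was lower, where 2.62% of all genes were. In 28 of the 44, every PpargΔ/Δ pool was above every control pool, which held for 12.9% of all genes. The 11 were 8 of 18 replication genes, 2 of 6 G1/S regulators and 1 of 20 mitosis genes. The count rests on single pools: it was 2 without PpargΔ/Δ pool 1 or 3 or without mixed control pool 1 or 2, 4 without PpargΔ/Δ pool 2, and 6 without mixed control pool 3 or without FVB control pool 1 or 3. Mcm2 and Ccnd1 alone stayed past the threshold each time a pool was left out.

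**Figure D2:**
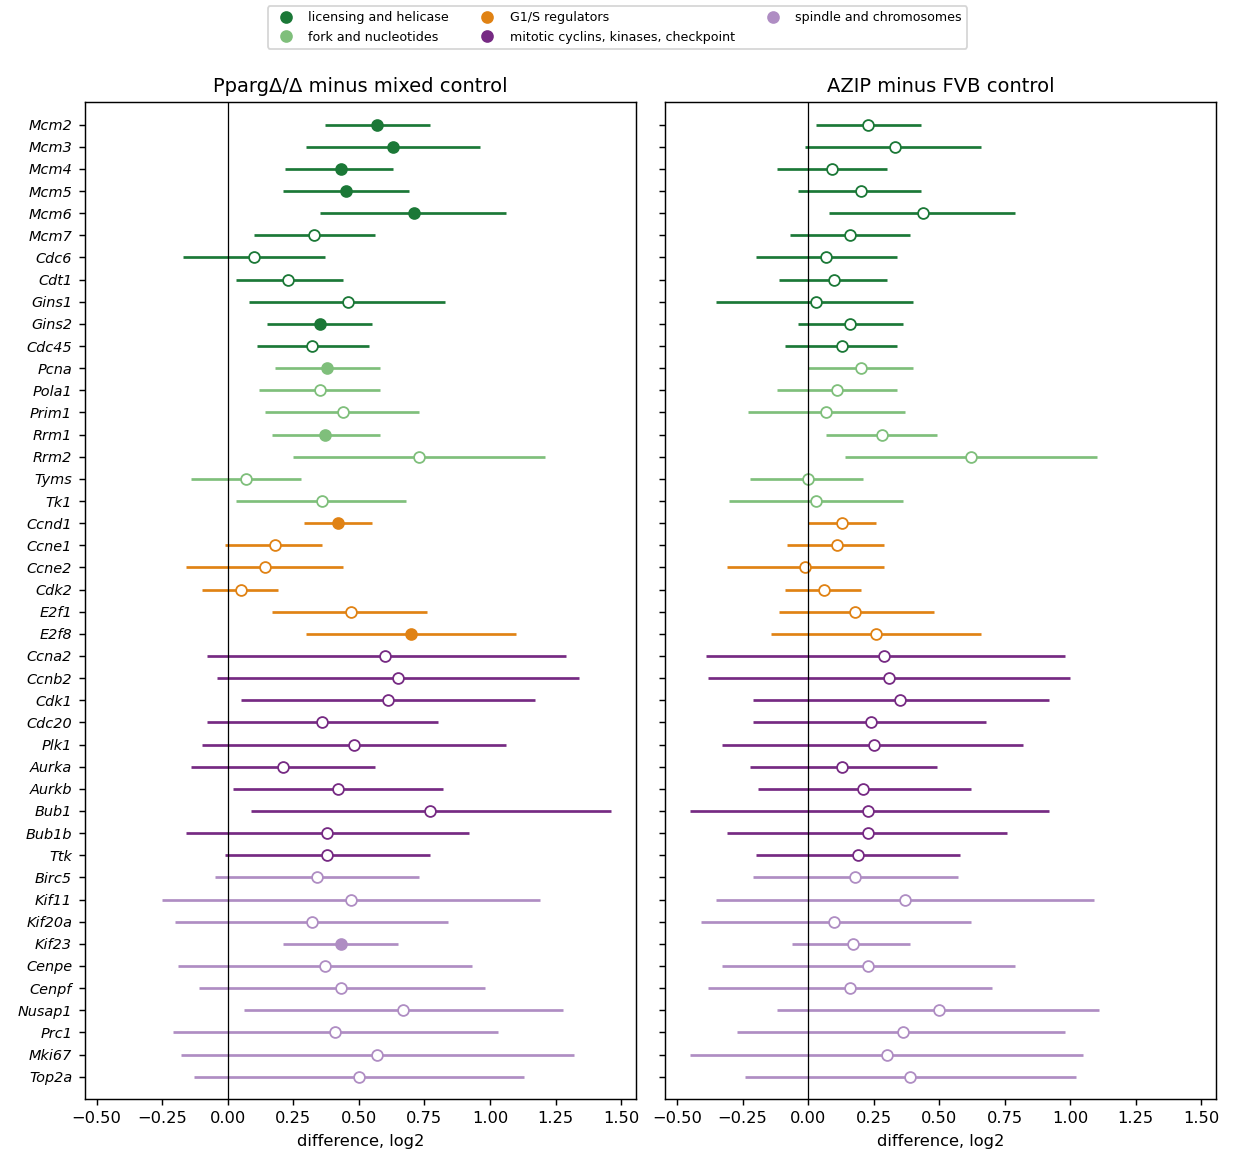
Difference between mutant and control for each of the 44 genes (log2, points) with its 95% confidence interval from limma (lines), for PpargΔ/Δ against mixed control on the left and AZIP against FVB control on the right. Filled points passed an adjusted p of 0.05: 11 on the left and 0 on the right, and the mitosis genes have the widest intervals.

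Of the 6 helicase subunits 5 passed the threshold as higher in PpargΔ/Δ kidneys. Mcm2 (probe set 10546163) read 9.33, 9.24 and 9.16, and its mixed control pools 8.63, 8.59 and 8.80, which gives a difference of 0.57 ± 0.09 (adjusted p = 0.00579), with no overlap. Mcm6 (10357436) read 9.29, 9.16 and 9.33 against 8.47, 8.45 and 8.74, a difference of 0.71 ± 0.16 (adjusted p = 0.0305), again with no overlap. Mcm3 rose by 0.63 ± 0.15, from 6.95 to 7.26 in the controls to 7.68 to 7.80 in the mutants (adjusted p = 0.0364). The subunits Mcm4 (0.43 ± 0.09, adjusted p = 0.025) and Mcm5 (0.45 ± 0.11, adjusted p = 0.0368) rose as well, each with no overlap. Mcm7, the remaining subunit, differed by 0.33 ± 0.11 with no overlap and did not pass (adjusted p = 0.0998).

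The loaders of the helicase behaved less uniformly. Cdc6, which opens the ring for loading, read 6.67, 6.44 and 6.19 against 6.38, 6.31 and 6.30, so that the groups overlapped (0.10, 95% interval -0.17 to 0.37). Cdt1, its partner, differed by 0.23 (0.03 to 0.44, adjusted p = 0.187) and also overlapped. Of the proteins that complete the helicase, Gins2 rose by 0.35 ± 0.09 (adjusted p = 0.0495), just inside the threshold. Gins1 (0.46 ± 0.17, adjusted p = 0.155) and Cdc45 (0.32 ± 0.10, adjusted p = 0.0846) had no overlap and did not pass.

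At the fork, Pcna, the sliding clamp that holds polymerases on DNA, rose. Its probe set 10487930 read 10.89, 10.66 and 10.80 against 10.39, 10.27 and 10.55, a difference of 0.38 ± 0.09 (adjusted p = 0.038) with no overlap. A second probe set of Pcna gave 0.37, but it read almost the same on every array and is not taken as separate support. The polymerase and primase subunits Pola1 (0.35 ± 0.11, adjusted p = 0.0793) and Prim1 (0.44 ± 0.14, adjusted p = 0.0878) had no overlap and missed the threshold.

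Ribonucleotide reductase makes the building blocks of DNA. Rrm1, its large subunit, rose by 0.37 ± 0.10, from 9.45 to 9.71 in the controls to 9.93 to 10.03 (adjusted p = 0.0448). Rrm2 (10394978), its small subunit, had the largest difference of the replication genes, 0.73 ± 0.22, and did not pass (adjusted p = 0.0769). It read 10.09, 9.45 and 9.45 against 9.17, 8.60 and 9.03, with no overlap but a wide spread in both groups. Of the thymidylate enzymes, Tk1, which salvages thymidine, gave 0.36 (0.03 to 0.68, adjusted p = 0.202), and 0.44 on a second probe set. Tyms, which makes thymidylate anew, gave 0.07 (-0.14 to 0.28). The intervals of Tk1 and Tyms overlap, and these genes were not compared by a test.

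Of the G1/S regulators, Ccnd1, the cyclin D1 gene that responds to growth signals, had the smallest p of the set. Its probe set 10569646 read 12.10, 12.16 and 12.10 in PpargΔ/Δ kidneys, while control pools read 11.65, 11.63 and 11.82, a difference of 0.42 ± 0.06 (adjusted p = 0.00355) with no overlap. E2f8 (10563780), an atypical E2F that represses E2F targets late in S phase, read 7.22, 6.64 and 6.88 against 6.29, 5.92 and 6.43, a difference of 0.70 ± 0.18 (adjusted p = 0.0485) with no overlap. The activator E2f1 differed by 0.47 ± 0.13 with no overlap and did not pass (adjusted p = 0.067).

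The kinase and cyclins downstream of cyclin D had small differences. Cdk2 gave 0.05 (-0.10 to 0.19), although its PpargΔ/Δ pools, 8.81 to 8.83, all lay above the controls, 8.75 to 8.80. The cyclin E genes gave 0.18 for Ccne1 (-0.01 to 0.36) and 0.14 for Ccne2 (-0.16 to 0.44), both with overlap. The interval of Cdk2 ends below each difference that passed in the set, and those of the cyclin E genes reach into them.

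**Figure D3:**
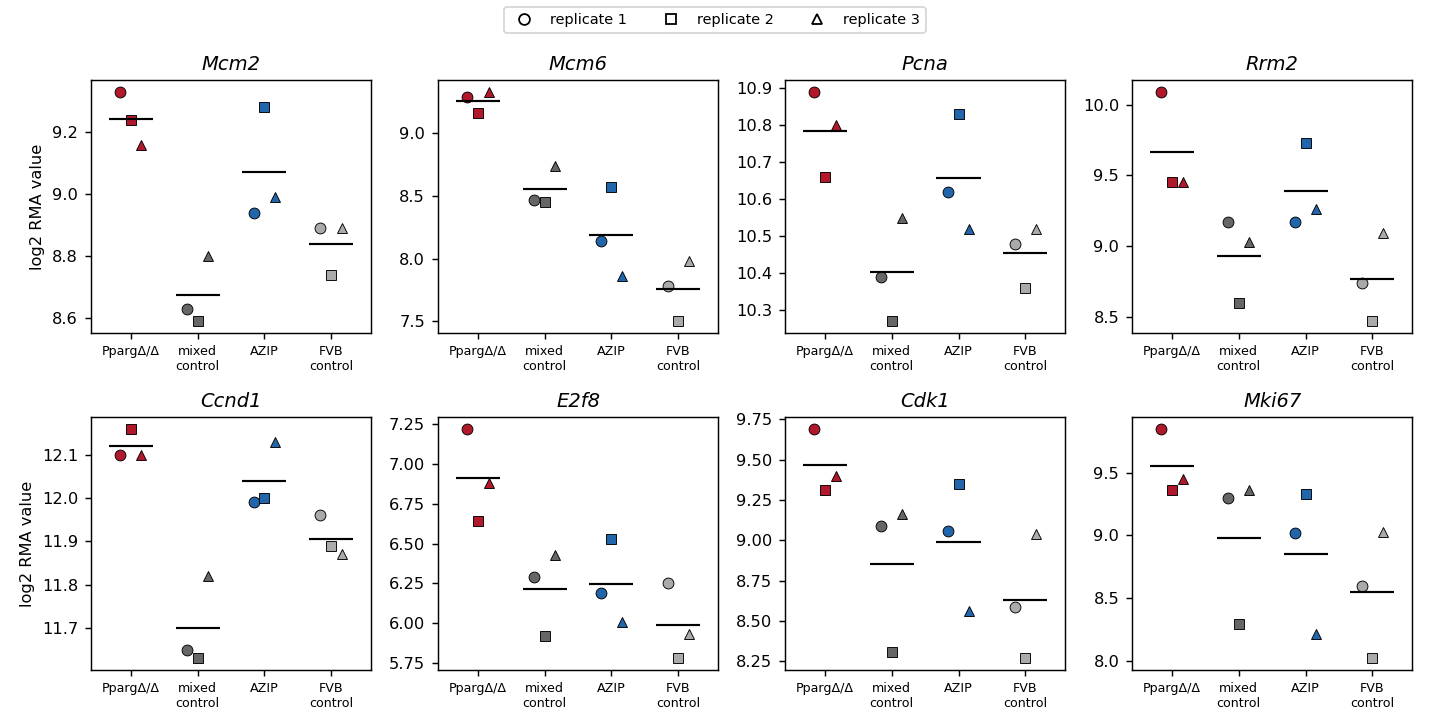
Log2 RMA values of 8 genes on each array, by group, with symbols for the replicate number and lines for group means; each panel has its own vertical axis. Mcm2 and Ccnd1 separate PpargΔ/Δ from mixed control clearly (9.16 to 9.33 against 8.59 to 8.80 for Mcm2), whereas in Cdk1 and Mki67 the low mixed control pool 2 widens the group.

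Among the mitosis genes only Kif23, a motor of the midzone that completes cell division, passed the threshold. Probe set 10594251 read 8.39, 8.32 and 8.40 against 8.03, 7.69 and 8.09, a difference of 0.43 ± 0.10 (adjusted p = 0.0329) with no overlap. Leaving out any PpargΔ/Δ pool or mixed control pool 1 or 2 ended this call, with adjusted p reaching 0.096.

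The other 19 mitosis genes had differences of 0.21 to 0.77, a range that includes those of the replication genes that passed, with adjusted p from 0.19 upwards. Bub1, a kinase of the spindle checkpoint, had the largest difference of all 44 genes, 0.77 ± 0.31 (adjusted p = 0.19). It read 8.25, 7.73 and 7.52 against 7.22, 6.60 and 7.35, with no overlap. The other checkpoint genes Bub1b and Ttk gave 0.38 each.

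Cdk1 (10369815) read 9.69, 9.31 and 9.40 against 9.09, 8.31 and 9.16, a difference of 0.61 ± 0.26 (adjusted p = 0.206). Its groups did not overlap, and the difference was smaller than the distance between the highest and lowest control. The cyclins that activate Cdk1 gave 0.60 for Ccna2 (-0.08 to 1.29) and 0.65 for Ccnb2 (-0.04 to 1.34). Of the mitotic kinases, Plk1 gave 0.48 (-0.10 to 1.06), Aurkb 0.42 (0.02 to 0.82) and Aurka 0.21 (-0.14 to 0.56), and Cdc20 gave 0.36 (-0.08 to 0.80).

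Mki67 (10568714), the source of the Ki-67 antigen that coats mitotic chromosomes, read 9.85, 9.36 and 9.45 against 9.30, 8.29 and 9.36. The difference was 0.57 ± 0.34 (adjusted p = 0.39), and the lowest mutant and the highest control both read 9.36. Of the genes for spindle and chromosomes, Nusap1, a microtubule binder, gave 0.67 (0.06 to 1.28), and Top2a, the topoisomerase that untangles sister chromatids, gave 0.50 (-0.13 to 1.13). A second probe set of Top2a, which read only 3.53 to 4.14, gave 0.27. The motors and midzone genes gave 0.47 for Kif11, 0.32 for Kif20a and 0.41 for Prc1, the kinetochore genes 0.37 for Cenpe and 0.43 for Cenpf, and Birc5, the chromosomal passenger survivin, 0.34.

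The distinction between the roles lay in the spread between pools and not in the size of the difference. The median difference was 0.38 for replication and 0.43 for mitosis genes. The order of these medians turned when mixed control pool 2 or PpargΔ/Δ pool 1 was left out, to replication above mitosis by 0.13 and 0.04. The SD between pools of a group, pooled over the 4 groups, had a median of 0.147 for the replication genes, 0.377 for the mitosis genes and 0.152 for the G1/S regulators, against 0.088 over all genes. The SD exceeded 0.189, the value that 95% of all genes stay under, in 19 of 20 mitosis genes and in 6 of 18 replication genes. The exception among the mitosis genes was Kif23, with an SD of 0.14, and the extremes of the set were Ccnd1 (0.0712) and Mki67 (0.506).

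**Figure D4:**
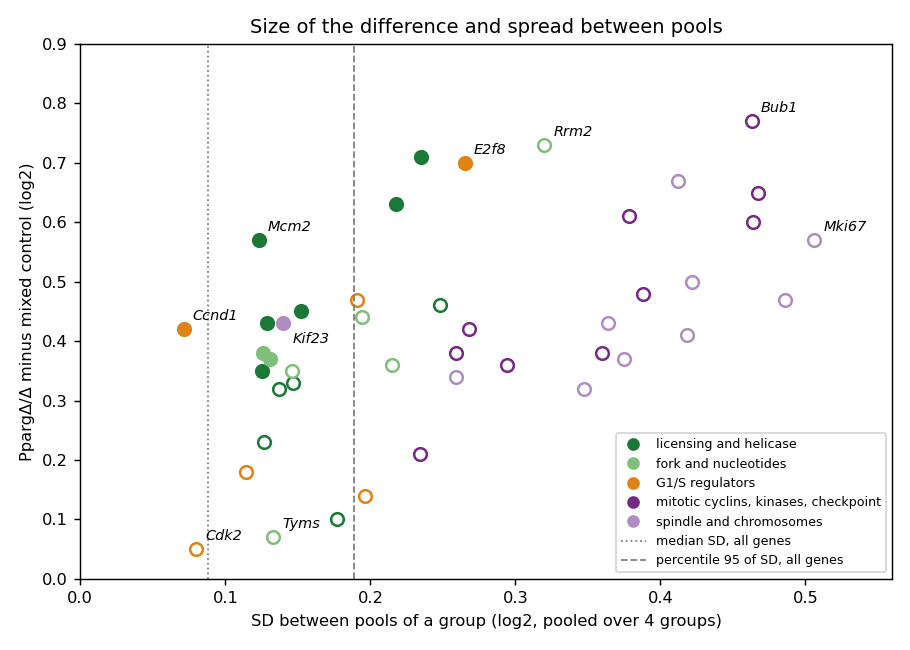
Difference between PpargΔ/Δ and mixed control (log2, vertical axis) against the SD between pools of a group (log2, pooled over 4 groups, horizontal axis) for the 44 genes, coloured by role; filled points passed an adjusted p of 0.05. Vertical lines mark the median (0.088) and the 95th percentile (0.189) of the SD over all genes, and 19 of 20 mitosis genes lie to the right of the second.

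The mitosis genes varied together. On PpargΔ/Δ pool 1, on mixed control pools 1 and 3, on AZIP pools 1 and 2 and on FVB control pool 3, all 20 of them stood above their group mean. On PpargΔ/Δ pool 2, mixed control pool 2, AZIP pool 3 and FVB control pool 2, all 20 stood below it. The mean over the 20 genes departed from its group mean by 0.28 on PpargΔ/Δ pool 1, by -0.48 on mixed control pool 2, by -0.47 on AZIP pool 3 and by 0.34 on AZIP pool 2. The replication genes departed on the same arrays by 0.12, -0.12, -0.20 and 0.26. On AZIP pool 1 they went the other way, with a mean of -0.06 and 4 of 18 above the group mean, against 0.13 for the mitosis genes. On mixed control pool 1, 9 of the 18 stood above it.

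**Figure D5:**
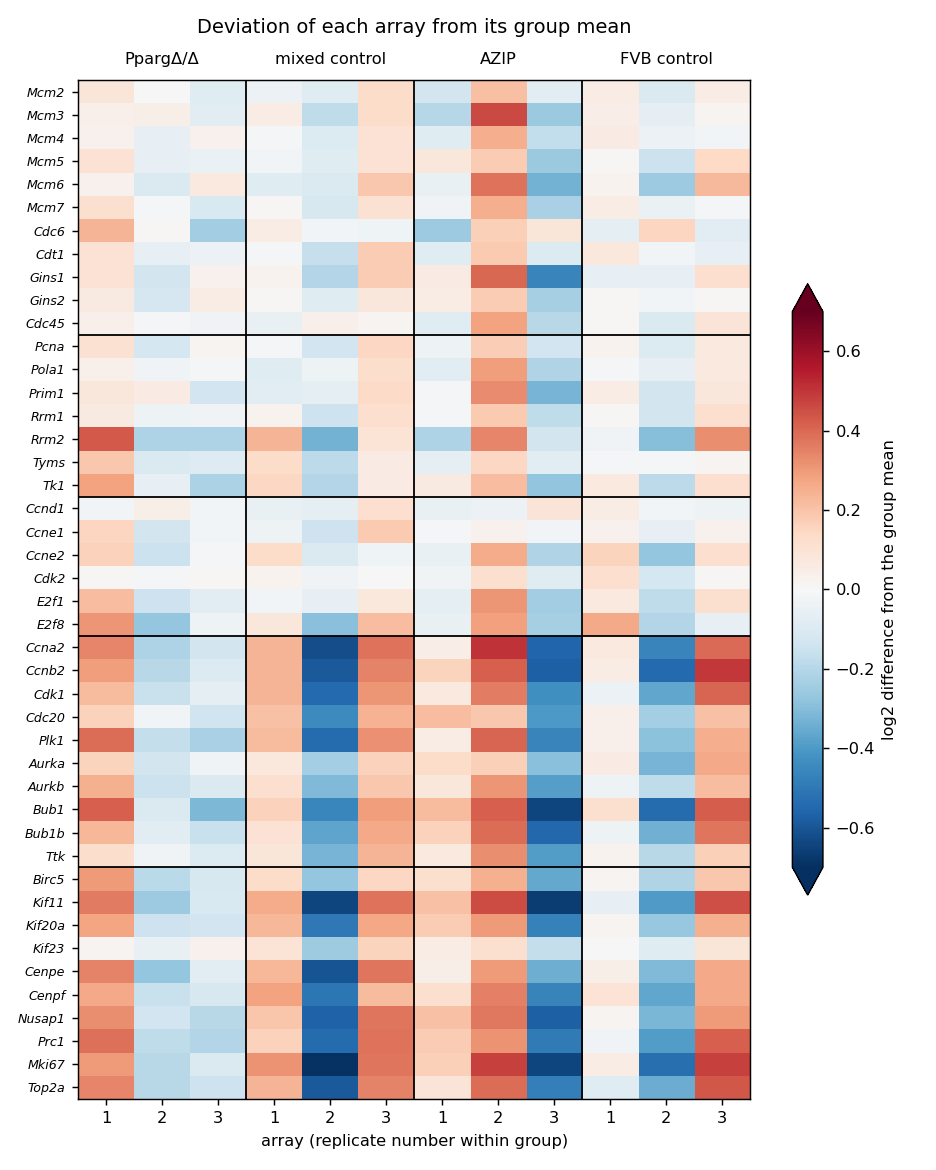
Log2 difference of each array from the mean of its own group, for the 44 genes (rows, ordered by role) and 12 arrays (columns). The mitosis genes form solid blocks, lowest on mixed control pool 2 (mean -0.48) and AZIP pool 3 (mean -0.47). The replication genes show a fainter pattern, which departs from that of the mitosis genes on AZIP pool 1 (mean -0.06 against 0.13).

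After each value was centred on its group mean, 2 mitosis genes correlated over the 12 arrays at a mean r of 0.96 (0.83 to 1.0), 2 replication genes at 0.71 (-0.09 to 0.96) and a replication with a mitosis gene at 0.72. These are descriptions over arrays that share their RNA, labelling and normalization. The mean of the replication genes followed that of the mitosis genes at 0.88. Ccnd1 stood outside this pattern, with r of -0.05 to the mitosis mean and -0.06 to the replication mean, and Cdc6 had 0.02 and 0.24. Outside the set, the 10 genes that followed the mean of the 44 most closely, at r of 0.979 to 0.992 over the 12 arrays, were Cdca3, Racgap1, Kif2c, Brca1, Anln, H2ac4, H1f1, Zwilch, Aspm and Ska3. Of these, Brca1 (0.52, adjusted p = 0.024) and Zwilch (0.67, adjusted p = 0.0389) were higher in PpargΔ/Δ kidneys by limma. The 18 genes with a CHR match had a median SD of 0.362 and the 18 without one 0.184, and 14 of the former were mitosis genes against 3 of the latter, so motif and role cannot be told apart here.

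AZIP kidneys were compared with FVB controls on arrays of their own, and no gene of the set passed the test. Of the 44 genes 42 were above 0, with a median of 0.19 against 0.00 over all genes. At an adjusted p under 0.05, 0 of the 44 were higher, where 1.3% of all genes were, and 0 were lower, where 1.13% were. The lowest adjusted p by limma was 0.156. An unadjusted p under 0.05 was found in 4 of the 44 and in 3267 of all 19938 genes, so the set held no excess of such genes. In 6 of the 44 (Mcm2, Mcm3, Pcna, Rrm2, Ccnd1 and Ccne1) every AZIP pool was above every control, which held for 11% of all genes. The median was 0.06 without AZIP pool 2 and 0.09 without FVB control pool 2, and stood at 0.35 without AZIP pool 3.

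The AZIP means over the replication genes were 8.29, 8.61 and 8.15 against 8.19, 8.08 and 8.24 in the FVB controls, and over the mitosis genes 7.91, 8.12 and 7.31 against 7.54, 7.19 and 7.84. Both sets overlapped, and the differences of the group means were 0.18 and 0.26. AZIP pool 2 was the highest of its group in both, and AZIP pool 3 the lowest.

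Rrm2 had the largest AZIP difference, 0.62 ± 0.22 (adjusted p = 0.17). It read 9.17, 9.73 and 9.26 against 8.74, 8.47 and 9.09, with no overlap. Mcm6 read 8.14, 8.57 and 7.86 against 7.78, 7.50 and 7.98, a difference of 0.44 ± 0.16 (adjusted p = 0.196) with overlap. The other 2 with an unadjusted p under 0.05 were Rrm1 (0.28 ± 0.10, adjusted p = 0.156) and Mcm2, which read 8.94, 9.28 and 8.99 against 8.89, 8.74 and 8.89 (0.23 ± 0.09, adjusted p = 0.223). Ccnd1 read 11.99, 12.00 and 12.13 against 11.96, 11.89 and 11.87, a difference of 0.13 (0.00 to 0.26, adjusted p = 0.317).

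Mitosis genes in AZIP kidneys had differences of 0.10 (Kif20a) to 0.50 (Nusap1), all 20 with overlap between groups. Mki67 read 9.02, 9.33 and 8.21 against 8.60, 8.02 and 9.03, with a difference of 0.30 and an interval of -0.45 to 1.05. Cdk1 gave 0.35 (-0.21 to 0.92). Such intervals hold both no difference and one larger than that of PpargΔ/Δ kidneys.

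Whether the 2 lines differed was tested directly, as PpargΔ/Δ minus mixed control less AZIP minus FVB control. None of the 44 genes passed, where 0.0201% of all genes did, and the lowest adjusted p by limma was 0.661. In 43 of the 44 the PpargΔ/Δ effect was the larger, as it was in 9729 of all 19938 genes, and the median over the 44 was 0.20. An unadjusted p under 0.05 was found in 3 of the 44, a share close to that over all genes, 1160 of 19938. The 3 were Ccnd1 (0.29, 0.10 to 0.48), Mcm2 (0.34, 0.06 to 0.62) and Mcm4 (0.34, 0.05 to 0.63). A larger effect in PpargΔ/Δ than in AZIP kidneys was therefore not shown for any gene of the set at this number of arrays.

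Other genes of the same pathway, in lists chosen with earlier results of these data known, were described in the same way. Of 34 further replication genes 10 were higher in PpargΔ/Δ kidneys, where 2.67% of all genes were, and 0 lower, where 2.62% were. Their median was 0.25. Among the 10 were the chromatin assembly subunit Chaf1b (0.63, adjusted p by limma = 0.012) and the maintenance methylation cofactor Uhrf1 (0.84, adjusted p = 0.0136). The ligase Lig1 (0.46, adjusted p = 0.0158) and the fork protection factor Tipin (0.48, adjusted p = 0.0165) passed as well. The count of 10 was 1 without mixed control pool 2, 2 without mixed control pool 1, and 3 without PpargΔ/Δ pool 2 or 3. In AZIP kidneys 1 of the 34 was higher, where 1.3% of all genes were. It was Dbf4, the activator of the kinase that fires origins. It read 7.44, 7.56 and 7.27 against 6.96, 6.81 and 7.08, a difference of 0.47 ± 0.10 (adjusted p by limma = 0.0305) with no overlap; this call was lost without AZIP pool 1 or 2, without FVB control pool 1 or 2, and with only the groups compared.

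Of 47 further mitosis genes 3 were higher in PpargΔ/Δ kidneys, where 2.67% of all genes were, and 1 was lower, where 2.62% were. A count of 1 in 47 is close to that share. The median difference was 0.38 and the median SD 0.277. The kinetochore gene Cenpk (0.80), the Cdk1 partner Cks1b (0.61) and the phosphatase Cdc25c (0.65) rose. The lower gene was the kinetochore gene Spc25, which fell by 0.31, from 9.67, 9.48 and 9.49 to 9.36, 9.20 and 9.14 (adjusted p by limma = 0.0391), with no overlap. This count of 4 went to 0 when any mixed control pool or PpargΔ/Δ pool 2 was left out, to 1 without PpargΔ/Δ pool 1 or 3, and to 2 without any FVB control pool.

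Further G1 cyclins, kinases, E2Fs and pocket proteins differed less, with a median of 0.06 over 24 genes. Of these 2 were higher, where 2.67% of all genes were. They were the pocket protein Rbl1 (0.35, adjusted p by limma = 0.0214) and the cyclin D partner Cdk6 (0.26, adjusted p = 0.0283). None of 6 measured CDK inhibitors passed in PpargΔ/Δ or in AZIP kidneys, and Cdkn1a, which was also listed, was not analysed here. An unadjusted p under 0.05 was found in 2 of the 6 in PpargΔ/Δ kidneys and in 3 in AZIP kidneys. Over all 19938 genes it was found in 4069 and 3267. Among the inhibitors the largest differences were those of Cdkn2b (0.26 and 0.30) and Cdkn1c (0.24 and 0.28). Leaving out mixed control pool 1 or 2 or PpargΔ/Δ pool 3 left none of the 24 past the threshold, and leaving out PpargΔ/Δ pool 2 or mixed control pool 3 left 1. Leaving out PpargΔ/Δ pool 1 brought 1 of the 6 inhibitors past the threshold in PpargΔ/Δ kidneys and, like leaving out PpargΔ/Δ pool 2, 1 in AZIP kidneys.

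Cell type markers moved with the PpargΔ/Δ group in part, and their part in the result was not tested. Over all genes 2.67% were higher and 2.62% lower. Of 8 neutrophil markers 3 were higher (S100a8, S100a9 and Ngp), and the mean of the 8 was 5.76 to 5.93 in PpargΔ/Δ pools against 5.53 to 5.59 in mixed controls. Of 5 erythroid markers 1 was higher (Epb42), with means of 7.06 to 7.25 against 6.92 to 7.02. Of 10 kidney epithelium markers 1 was higher and 0 lower, with means of 11.86 to 11.92 against 11.85 to 11.95. None of 8 macrophage markers passed (8.23 to 8.76 against 8.14 to 8.33) and none of 7 lymphocyte markers (5.59 to 5.61 against 5.57 to 5.70). Of 8 endothelial and stromal markers 2 were higher (Acta2 and Col1a1), with means of 10.33 to 10.44 against 10.17 to 10.20, and of 6 nephron progenitor markers Crym was lower, with means of 7.07 to 7.09 against 7.18 to 7.25. Of 7 urothelial markers 1 was higher (Krt5) and 1 lower (Upk1b), with means of 7.18 to 7.28 against 7.08 to 7.24, and none of 5 fat markers passed (5.48 to 5.52 against 5.63 to 5.88). In AZIP kidneys also 2 of the 8 endothelial and stromal markers were higher, where 1.3% of all genes were. Their means were 10.34 to 10.50 against 10.25 to 10.26 in FVB controls. No marker of the other lists passed there.

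Of 5 tubular injury genes only Lcn2, which injured tubules secrete, was higher. It read 10.50, 9.29 and 9.69 against 7.88, 7.75 and 8.01, a difference of 1.94 ± 0.24 (adjusted p by limma = 0.00184), and the mean of the 5 was 8.52 to 9.15 against 8.29 to 8.50. The median difference of the 5 was -0.07, and 2 of them were above 0. In AZIP kidneys none of the 5 passed, and the mean of the 5 was 8.28 to 8.79 against 8.15 to 8.29 in FVB controls. Centred on the group means, this mean followed that of the replication genes at r of 0.86 and that of the mitosis genes at 0.71 over the 12 arrays, while the macrophage mean had 0.82 and 0.62, the fat mean 0.72 and 0.57, the erythroid mean 0.68 and 0.64, the urothelial mean 0.51 and 0.29, the neutrophil mean 0.37 and 0.09, the endothelial and stromal mean 0.34 and 0.12, the kidney epithelium mean 0.20 and 0.24, the nephron progenitor mean -0.11 and -0.12 and the lymphocyte mean -0.42 and -0.61. Again their part in the result was not tested.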

How the data were processed

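Whole-kidney RNA was measured on 12 Affymetrix arrays. The deposited values are in log2. Per the submitters' processing notes, the authors ran RMA from Affymetrix Expression Console, a method that corrects background, normalizes the arrays together and summarises the probes of a set; no version, setting or annotation build is given in the sources used here. Array medians were 7.17 to 7.21. Of 35556 probe sets 21789 had 1 symbol, 1621 several and 12146 none. Symbols were updated by Entrez number for 21698 from a RefSeq mouse gene table (GRCm38.p6), and 91 were kept. The probe set with the highest mean was used for 999 genes with several, which left 19938 genes.

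The fit was limma 3.58.1 (R 4.3.3), with a mean for each group over the 12 arrays, 8 residual and 3.71 prior degrees of freedom and a median SE of 0.0698. Benjamini-Hochberg adjustment covered all genes, and intervals are 95%. The fit was also run on simulated data with independent noise for each gene. The members vary together in the real arrays, so that run does not bear on the counts of members. A gene list was described by counts and its median, with no test. The members and the lists were chosen with earlier results of these data known. Besides the members, the text could name up to 4 genes per pathway list with the smallest p past the threshold, the CDK inhibitors, the markers, and the 10 genes most like the mean of the members. Alternatives were quantile normalization again, equal medians, no genes under percentile 25, averaged probe sets, a variance trend, array weights, a fit to only the groups compared, a replicate block, and each array left out. Array number limits the precision. Scanner files were not used here.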

Additional observations from a re-analysis of the deposited data

How the results depend on the processing

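Medians over the 44 genes in PpargΔ/Δ kidneys stayed between 0.28 and 0.51, and none of the 44 passed in AZIP kidneys, under every alternative run. In the difference between the lines none passed either, under every alternative but the fit to only the groups compared, which does not give that difference. The count in PpargΔ/Δ kidneys, 11, ranged from 2 to 16 with an array left out, and those of replication and mitosis genes from 1 to 12 and from 0 to 1; without an array of the group a mean rests on 2 pools. With only the groups compared, 0 mitosis genes passed. With a replicate block 3 genes passed, 2 of replication and 0 of mitosis. Of the further replication genes 2 and of the further mitosis genes 2 passed with the block, and with it Dbf4 did not pass in AZIP kidneys. The labels do not say whether equal numbers pair the pools. Same-numbered pools deviated together at r of 0.18, 0.18 and 0.01 in PpargΔ/Δ and mixed control. Pools of unlike number there had r of -0.26 to 0.15. In AZIP and FVB control the values were -0.04, -0.10 and -0.01, against -0.11 to 0.15 for unlike numbers. So few values cannot decide whether the pools are paired.

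Over all genes the PpargΔ/Δ calls, 1055, went to 607 with only the groups compared, 667 with the block and 330 to 1220 with an array left out; the AZIP calls, 485, went to 162, 313 and 62 to 606, and to 785 with a variance trend. Array weights gave 1500 and 641, and the filter on low genes 1384 and 713.

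Directions turned for some genes, among them Bub1, whose AZIP difference was 0.23 with all arrays. In AZIP kidneys Tk1 was -0.02 with the mean of its probe sets and Ccne2 0.09 with array weights. With an array left out, AZIP values spanned -0.04 to 0.18 for Mcm4, -0.01 to 0.20 for Cdc6, -0.17 to 0.26 for Gins1, -0.01 to 0.22 for Cdc45, -0.04 to 0.21 for Pola1, -0.10 to 0.23 for Prim1, -0.08 to 0.17 for Tk1, -0.15 to 0.09 for Ccne2, -0.01 to 0.12 for Cdk2, -0.03 to 0.28 for Aurka, -0.03 to 0.55 for Bub1, -0.05 to 0.34 for Kif20a and -0.02 to 0.39 for Cenpf. In PpargΔ/Δ kidneys Cdc6 spanned -0.02 to 0.22 and Tyms -0.02 to 0.13. The cause of these shifts was not tested.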

Other observations

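A list of 20 genes of growth arrest and the p53 pathway had values for 17, and Trp53, Bax and Tp53inp1 were not analysed here. Of the 17, 4 were higher in PpargΔ/Δ kidneys by limma, where 2.67% of all genes were, and 0 were lower, where 2.62% were. The median over the 17 was 0.08, with 10 above 0. The 4 were the antiproliferative Btg2, the stress-induced sestrins Sesn1 and Sesn2, and Gadd45a. Btg2 read 9.05, 9.36 and 9.28 against 8.54, 8.70 and 8.54, a difference of 0.64 ± 0.08 (adjusted p = 0.00164). Sesn2 read 10.41, 10.27 and 9.99 against 9.55, 9.38 and 9.22, a difference of 0.84 ± 0.21 (adjusted p = 0.0433). Neither pair of groups overlapped. In AZIP kidneys the median was 0.05 and 3 of the 17 were higher, where 1.3% of all genes were: Sesn1 (0.63, adjusted p = 0.00429), Btg2 (0.37, adjusted p = 0.0306) and Gadd45b (0.33, adjusted p = 0.0431), so that genes of this list passed in the line in which no gene of the main set did. The count of 4 was 2 without either of PpargΔ/Δ pools 2 and 3, any mixed control pool or any FVB control pool, and the count of 3 was 1 without AZIP pool 1 or 2 or FVB control pool 1 or 3.

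Between the 2 control groups, which differ in strain background and were not compared by a test, Mcm6 averaged 8.55 in mixed and 7.76 in FVB controls, with no overlap. The other genes of the set whose controls did not overlap were Cdc6 (6.33 against 6.12), Tyms (8.96 against 9.23) and Ccnd1 (11.70 against 11.91).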
